A study of Mus musculus with 4 samples.

Results

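NF-κB is built from 5 related proteins, and the ATAC-seq intervals listed near the genes of these subunits, Nfkb1, Nfkb2, Rel, Rela and Relb, are described here. ATAC-seq cuts accessible DNA with the Tn5 transposase, so that more reads in an interval mean a more accessible site. The cells were RAW 264.7 macrophages, an established mouse line written RAW 267.4 in the labels, and markers of the cell type could not be checked in a table of changed intervals. There were 2 untreated control samples and 2 samples given 5 mM MCD (methyl-β-cyclodextrin, a sugar ring that extracts cholesterol from membranes) in medium with BSA for 1 hr, and the labels do not say whether the 2 samples of a condition were separate cultures. An interval was a member when the transcription start site (TSS) nearest to it, among GENCODE M21 transcripts with an Entrez identifier, belonged to one of the 5 genes. By this rule 22 of the 3812 intervals in the authors' table were members, 20 of them at Nfkb1 and 2 at Rel. Nfkb2, Rela and Relb had 0 intervals. Per the study's methods, the table lists intervals that passed its comparison of MCD with control, so a gene without an interval has no accessibility value here. Each value is the authors' mean of normalized reads over the samples of a condition. The spread between the 2 samples of a condition and the depth of each sample are not known from these means. No test was run, and every difference below is a description of these means.

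In resting macrophages NF-κB dimers are held in the cytoplasm by IκB proteins, and inflammatory signals release them to the nucleus, where they bind κB sites. Nfkb1 encodes the p105 precursor, which is processed to the DNA-binding subunit p50. Nfkb2 encodes p100, the precursor of p52. Rela (p65), Rel (c-Rel) and Relb carry the transactivation domains of the family. Several of these genes are themselves known targets of NF-κB.

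In 3 intronic intervals the DNA held a κB consensus and accessibility rose more than 5-fold. Their reference sequences are shown because the largest changes at these genes fell there. Each is the plus strand of GRCm38, 5′ to 3′, with the κB match in capitals, and in the first of them the earlier run of capitals is an AP-1 match (TGANTCA).
Nfkb1 intron 1, chr3:135670605-135670805: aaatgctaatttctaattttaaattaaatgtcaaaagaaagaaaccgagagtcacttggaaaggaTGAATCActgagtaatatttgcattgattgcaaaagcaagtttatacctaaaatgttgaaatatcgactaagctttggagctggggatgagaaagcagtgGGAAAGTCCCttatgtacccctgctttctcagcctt
Nfkb1 intron 6, chr3:135640299-135640499: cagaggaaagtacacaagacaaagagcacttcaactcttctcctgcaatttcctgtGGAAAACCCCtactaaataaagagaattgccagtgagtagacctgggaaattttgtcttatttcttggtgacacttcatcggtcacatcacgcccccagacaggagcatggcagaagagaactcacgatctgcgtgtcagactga
Rel intron 3, chr11:23754365-23754565: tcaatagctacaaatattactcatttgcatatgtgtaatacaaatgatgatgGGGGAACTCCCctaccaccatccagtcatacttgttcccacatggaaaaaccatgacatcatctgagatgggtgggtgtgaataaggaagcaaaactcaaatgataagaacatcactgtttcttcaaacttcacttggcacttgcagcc

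The site in Nfkb1 intron 1 reads GGGACTTTCC on the minus strand, which is the strand of the gene, from 135670770 to 135670779. The site in Nfkb1 intron 6 reads GGGGTTTTCC on the same strand, from 135640355 to 135640364. In Rel the consensus matched once on each strand with a shift of 1 base, as GGGGAACTCC on the plus strand and GGGAGTTCCC on the minus strand. The AP-1 match in Nfkb1 intron 1 and the κB match in the same interval do not overlap.

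Nfkb1 (ENSMUSG00000028163.17) occupies 106893 bp of chromosome 3 in GRCm38 (135584655 to 135691547) and is transcribed from the minus strand. All 20 of its intervals had a higher mean after MCD, against 73.2% of all intervals in the table. At least 2-fold higher were 19 of the 20, against 57.3% of all intervals. Of these 19, 15 had 10 to 20 control reads. No interval of that level was listed as lower after MCD, and the smallest fold listed there was 2.43. Every listed interval there was thus higher and passed 2-fold, so neither direction nor 2-fold sets these 15 apart. The shares over all intervals cover all control levels and are not a like background for them. Across the 20 intervals the control mean had a median of 14.3 normalized reads and the MCD mean a median of 50.9. The median log2 difference, MCD minus control, was 1.72, with a range from 0.59 to 2.89. Over all 3812 intervals the median log2 difference was 1.14, and over the 2790 that were higher after MCD it was 1.39. Both of these medians cover all control levels, and intervals of a like control mean are compared below.

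**Figure D1:**
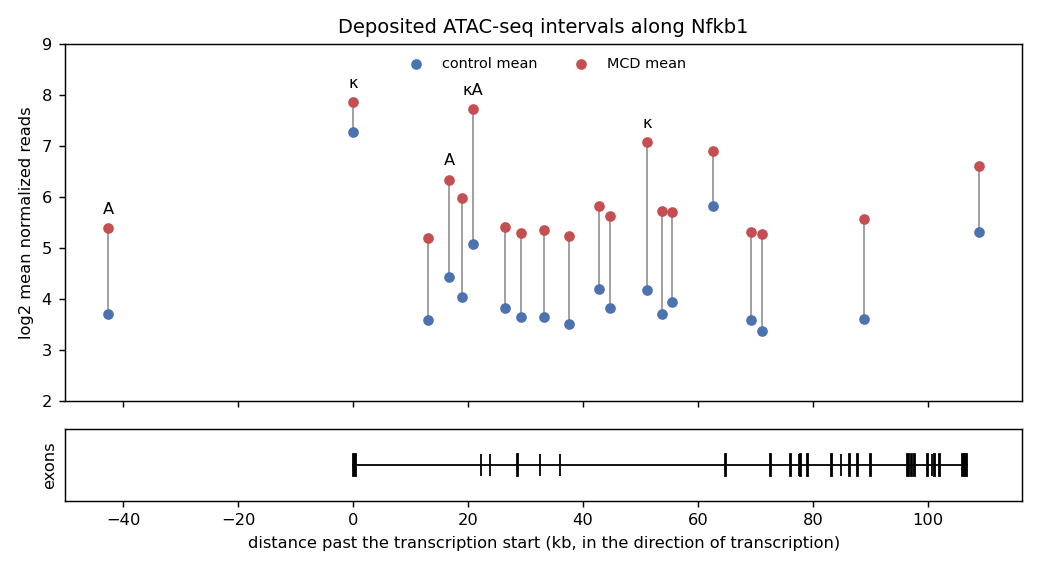
Condition means of the 20 intervals assigned to Nfkb1, in log2 mean normalized reads, against the distance past the transcription start in kb, with the exons of the main transcript below. Blue points are control means, red points MCD means, and the letters κ and A mark intervals with a κB or an AP-1 match. Every MCD mean lies above its control mean, and 17 of the 20 intervals lie in the first 72 kb past the start. The tallest rises are at the κB-marked intervals of introns 1 and 6.

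The intervals were spread unevenly along the transcribed region, with 17 of the 20 in the first 72 kb past the start. On the main protein-coding transcript (ENSMUST00000029812.13, 25 exons), 18 of the 20 intervals overlapped the gene, 1 at exon 1 and 17 in introns. Intron 6, the longest at 28756 bp, held 7 of them, and intron 1, at 21783 bp, held 4. Introns 3, 4, 5 and 16 held 1 each and intron 7 held 2. The gap between neighbouring intervals had a median of 3773 bp, a minimum of 1581 bp and a maximum of 17552 bp. The 18 intervals covered 3.38% of the length of the gene. Outside it, 1 interval lay 42521 bp upstream of the start and 1 lay 1921 bp past the 3′ end.

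The interval that covers the main start, from 135691442 to 135691642, was the most accessible of the 20 in control, with 154.9 normalized reads. It rose to 232.8 after MCD, and this log2 difference of 0.59 was the smallest change among the 22 members. Its G and C content was 71.1%, against 35.8% to 56.2% in the other members. It held a κB match on the minus strand, from 135691507 to 135691516, inside exon 1. It was also the 1 member within 3 kb, the distance the study set for promoters, of the main start. Another 5 Nfkb1 intervals lay within 3 kb of starts of shorter annotated transcripts in the gene body, at 47 to 2538 bp, and the κB interval of intron 1 was one of these, 1266 bp from such a start.

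The interval in intron 1 printed first above, 20741 bp downstream of the start, rose from 34.1 to 212.4 normalized reads (6.24-fold, log2 difference 2.64). Its MCD mean approached that of the interval at the start, while its control mean was well below it. The interval in intron 6 printed above, 51047 bp downstream, rose from 18.1 to 134.5 reads (7.43-fold, log2 difference 2.89). This was the largest change among the 22 members and ranked 27 of all 3812 intervals.

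Between and around these sites lay a series of weaker intervals with a similar rise. In the introns 14 intervals held neither a κB nor an AP-1 match. Apart from 1 of them, their control means lay between 10.5 and 18.5 normalized reads, their MCD means between 36.9 and 62.9, and their log2 differences between 1.58 and 2.01. The exception, in intron 6 from 135628747 to 135628947, was more accessible in control with 57.1 reads and rose 2.09-fold to 119.6. The largest rise of the series (4.03-fold) was at 135637674 to 135637874, where the mean rose from 13.1 to 52.8 reads. The interval past the 3′ end, from 135582534 to 135582734, rose from 39.8 to 98.1 reads (2.47-fold). Farther on, 28287 bp past the 3′ end, an interval assigned to the neighbouring gene Manba, which encodes β-mannosidase, rose from 6.10 to 40.1 reads (6.56-fold).

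AP-1 is a dimer of Jun and Fos proteins, and its consensus was searched here as TGANTCA, which is looser than TGACTCA or TGAGTCA. This consensus was held by 2 further Nfkb1 intervals without a κB match. Their sites are shown with 10 bases on each side, plus strand, with the match in capitals.
Nfkb1 intron 1, chr3:135674817-135674843: gatgcagacaTGAGTCAtgaacatggc
Nfkb1 upstream, chr3:135734182-135734208: tttcctcgggTGACTCAtgagctatcg

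The interval around the first of these sites rose from 21.6 to 81.3 normalized reads (3.77-fold). The interval around the second rose from 13.0 to 41.9 reads (3.22-fold). Both folds fell within the range of the intronic intervals that held neither match.

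Rel (ENSMUSG00000020275.9), the gene of c-Rel, is also a minus-strand gene (chromosome 11, 23736847 to 23770970), with 10 exons in its 1 annotated transcript. Both of its intervals were higher after MCD, against 73.2% of all intervals, and by nearly the same factor from very different starting levels. In intron 3, 16405 bp downstream of the start, the interval with the overlapping κB matches rose from 42.4 to 228.7 normalized reads (5.39-fold, log2 difference 2.43). In intron 5, 24506 bp downstream, the interval from 23746264 to 23746464 rose from 8.26 to 44.3 reads (5.36-fold, log2 difference 2.42). This second interval held no κB match and an AP-1 match, shown on the plus strand with 10 bases on each side.
Rel intron 5, chr11:23746338-23746364: ccctcccctgTGAGTCActaattaaga

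Further intervals close to Rel were assigned to its neighbour Pus10, a pseudouridine synthase gene, because a Pus10 transcript that is not protein-coding starts nearer to them. One of them, from 23741463 to 23741663, lies inside the last exon of Rel and rose from 24.8 to 81.8 reads (3.29-fold). The others lie 1735 bp and 6582 bp past the 3′ end of Rel. They rose from 15.9 to 93.1 reads (5.85-fold) and from 13.6 to 40.4 reads (2.96-fold). With the starts of protein-coding transcripts alone, all 3 were nearest to Rel, which would then have 5 intervals, all higher after MCD.

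**Figure D2:**
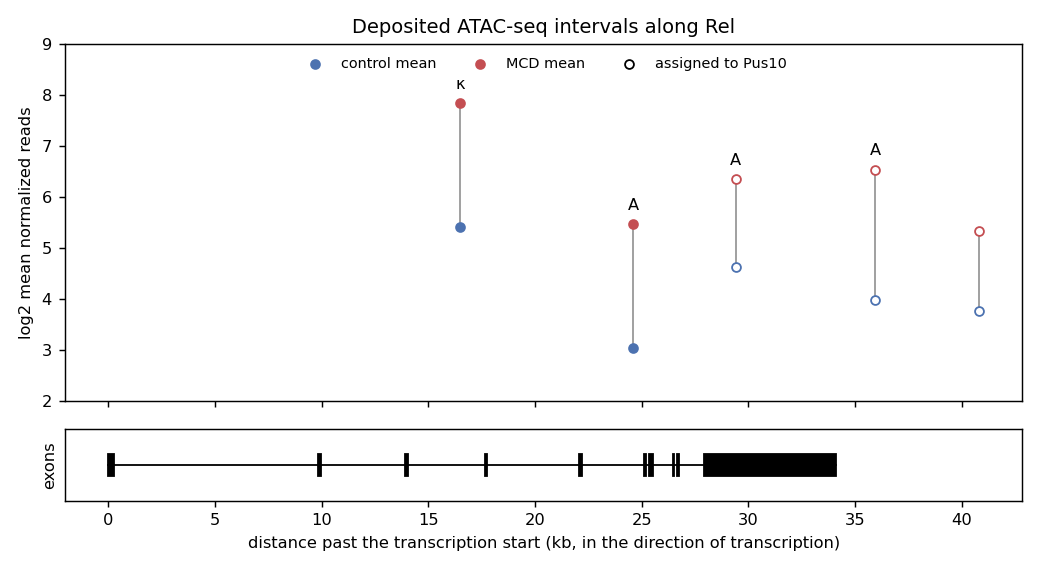
Condition means of the intervals at Rel, in log2 mean normalized reads, against the distance past the transcription start in kb, with the exons below. Filled points are the 2 intervals assigned to Rel and open points the 3 assigned to Pus10, in blue for control and red for MCD, and the letters κ and A mark a κB or an AP-1 match. All lie downstream of the start, and the κB-marked interval has the highest means of both conditions.

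The remaining subunit genes had no interval. Nfkb2 (ENSMUSG00000025225.15, chromosome 19 from 46304320 to 46312385) had its nearest listed interval 34791 bp from a TSS. That interval, at the start of Mfsd13a, rose from 107.8 to 178.6 normalized reads (1.66-fold) and held a κB match. Rela (ENSMUSG00000024927.8, chromosome 19 from 5637483 to 5648130) had its nearest one at 174817 bp, which was assigned to Neat1. Relb (ENSMUSG00000002983.17, chromosome 7 from 19606217 to 19629438) had its nearest one at 143924 bp, which was assigned to Bcam. The reads at these genes themselves are not known from the table used here.

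For 3 of the 5 genes a RefSeq promoter window of GRCm38.p6, from 250 bases before to 50 after a start, was matched by symbol, namely Nfkb2, Rel and Rela. Nfkb1 and Relb were not matched. Across all 32851 such windows, 4.51% held a κB match on either strand. The Rel window held κB matches, as did each of the 3 Nfkb2 windows, and the Rela window held 0. The sites nearest to the upstream end of the Rel window and of the first Nfkb2 window are shown on the strand of each gene, with the κB matches in capitals, since at these promoters a κB match was present and no interval was listed.
Rel promoter, chr11:23771042-23771070: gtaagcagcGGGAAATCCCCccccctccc
Nfkb2 promoter, chr19:46304689-46304717: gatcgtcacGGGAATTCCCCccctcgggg

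Both stretches lie upstream of the RefSeq start, with the first κB base at -92 in Rel and at -39 in Nfkb2. Each holds matches shifted by 1 base. At Rel the nearest interval to the start was the one in intron 3, so the change listed at this gene lay within its body.

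Among all 22 members, 4 intervals (18.2%) held a κB match, against 7.03% of all 3812 intervals and 8.67% of those higher after MCD. An AP-1 match was found in 4 members (18.2%), against 39.6% of all intervals and 52.8% of those higher after MCD. Only the first interval printed above held both, and with the AP-1 consensus limited to TGACTCA and TGAGTCA, 0 members did, since its site is TGAATCA. Neither match was present in 15 members (68.2%), all at Nfkb1, against 55.9% of all intervals and 41.9% of those higher after MCD. These are letter matches on both strands within an interval, and all intervals had the same width, and binding was not measured.

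The members with a κB match stood apart in level. Without the interval at the Nfkb1 start, the 3 others had MCD means of 134.5 to 228.7 reads and rose 5.39- to 7.43-fold. The 18 members without a κB match had MCD means of 36.9 to 119.6 reads and rose 2.09- to 5.36-fold. These 3 intervals lie at 2 genes. In the table as a whole the κB match went with little difference in size, since the median fold was 2.74 over the 242 higher intervals with a κB match and 2.65 over the 1168 with neither match.

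Level and fold were tied in the table, since the smallest fold listed among higher intervals was 2.43 with 10 to 20 control reads and 1.87 with 30 to 50. The members were therefore set beside the higher intervals of a like control mean, in ranges taken after the values were seen. Of the 648 higher intervals with 10 to 20 control reads, the median fold was 3.29. The 15 members in this range, all at Nfkb1, had a median of 3.30, with 7 below and 8 above that of the range. The κB interval of Nfkb1 intron 6 had the largest fold of the 648. Of the 548 higher intervals with 30 to 50 control reads, with a median fold of 2.37, the κB intervals of Nfkb1 intron 1 and Rel intron 3 ranked 1 and 2. The many weak intervals of Nfkb1 were thus close to the other listed intervals of their level, and the 3 intronic κB intervals were at the upper end of theirs. Members outside both ranges were not ranked by level. One was the κB interval at the Nfkb1 start, which had the smallest change of all members (log2 difference 0.59). Another was the interval of Rel intron 5, which held no κB match. Its difference ranked 147 of all 3812 intervals, beside 145 for the κB interval of Rel intron 3.

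**Figure D3:**
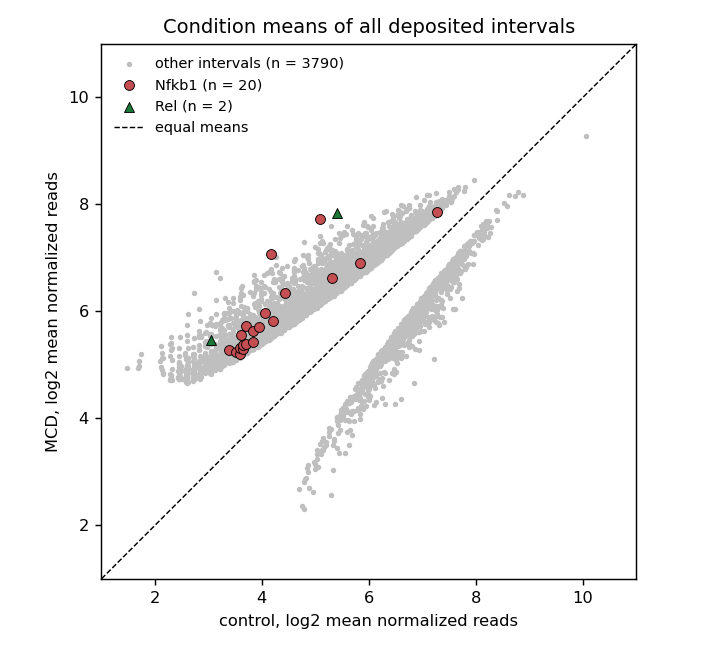
MCD mean against control mean of all 3812 intervals in the table, both in log2 mean normalized reads, with the 20 Nfkb1 intervals as red circles, the 2 Rel intervals as green triangles and the others in grey. The dashed line marks equal means, and few intervals are listed close to it. All 22 members lie above the line, as do 73.2% of all intervals. Most Nfkb1 intervals lie at low control means, with the 3 intronic κB intervals at the upper edge of the cloud.

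Nfkb1 had more intervals than any other gene in the table. Of the 2582 genes with an interval, 1881 (72.9%) had 1, and the next after the 20 of Nfkb1 were Cited2 with 11 and Bcl2l11 with 10. No other gene had as many inside it. Of the 2305 genes at least as long as Nfkb1, itself included, 1786 had no interval inside the gene, 506 had 1 to 5 and 13 had over 5. Nfkb1 had 18 inside it, and the next by this count were Hivep3 with 9 and genes with 8, among them Ptprj, Cx3cr1 and Myo1e. Per 100 kb of gene these counts came to 16.8 for Nfkb1, 5.30 for Ptprj, 4.75 for Cx3cr1, 4.16 for Myo1e and 2.23 for Hivep3, and shorter genes with fewer intervals were not ranked by density. Rel, with 2 assigned intervals, was among the 440 genes with that number. Of 9 genes of the AP-1 family, Fosl2 and Atf3 had 4 intervals each, Jun 3, and Junb and Batf 1 each, while Jund, Fos, Fosb and Fosl1 had 0.

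**Figure D4:**
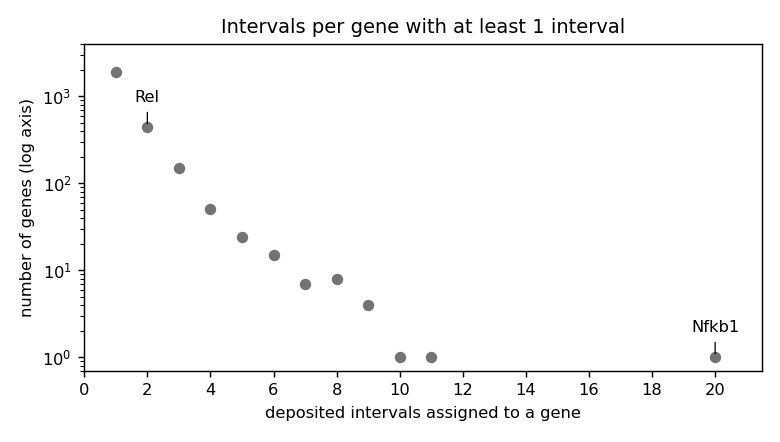
Number of genes, on a log axis, against the number of intervals in the table assigned to a gene, over the 2582 genes with at least 1 interval. Rel is 1 of 440 genes with 2 intervals, and Nfkb1, with 20, lies apart from the next gene at 11.

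Of 24 other genes that act with the NF-κB subunits, all protein-coding, 6 had an interval, and 11.8% of the 20748 protein-coding genes with an Entrez identifier had one. The 6 genes held 17 intervals, of which 16 were higher and 1 was lower after MCD, against 73.2% higher among all intervals. That share covers all control levels, and these 17 intervals were not set beside others of a like control mean. Among 6 inhibitors of the IκB group, Nfkbiz, a nuclear IκB protein that acts as a cofactor, had 8 intervals, all higher, and the most changed rose from 9.36 to 56.0 reads (5.98-fold). Nfkbia, Nfkbib, Nfkbie, Nfkbid and Bcl3 had 0. Among 7 kinases, Map3k14, the kinase NIK of the noncanonical pathway that leads to p52, had 1 interval, which was lower, with 63.7 reads in control and 29.7 after MCD. Among 11 adaptors and ubiquitin enzymes, Tnfaip3 (A20), Tnip1, Traf3 and Otulin had 8 intervals, all higher. The most changed of Tnfaip3, a deubiquitinase that limits the signal, rose from 24.6 to 94.1 reads (3.83-fold), and that of its partner Tnip1 from 67.9 to 193.9 reads (2.86-fold). For Traf3, which restrains NIK, the rise was from 38.1 to 76.0 reads (1.99-fold).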

How the data were processed

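ATAC-seq was performed on 2 control and 2 MCD samples, grouped by their titles. Alignment by the authors used Bowtie2 and the GRCm38 genome, Picard marked duplicates for removal, MACS2 (MACS3 3.0.0 in the submitters' processing notes) gave peaks, and DiffBind compared the conditions. Whether peaks were called per sample, the scaling between samples and any shift for the Tn5 offset are not given in the sources used here. The deposited values used are log2 means of normalized reads per condition. Reads are 2 to the power of these values, and differences are MCD minus control. The other deposited columns hold the mean over both conditions and the authors' fold, p-value and FDR, and were not used. Without values per sample, another scaling could not be tried.

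Distances run from the nearer edge of an interval to the TSS. Assignment and motif search were tested on simulated data. Sequences were read with pysam 0.24.0 from RefSeq GRCm38.p6, and calculations used Python 3.11.15, numpy 2.4.6 and pandas 2.3.3. Every interval of the 5 genes is covered, but most intronic Nfkb1 intervals with neither match are given only by intron and by the range of their values. The members, the gene lists and the κB and AP-1 consensus were chosen with earlier results of these data known. The ranges of like control level were added after the values were seen. Alternatives were other gene assignments, another consensus or window, added reads, centring and another promoter distance.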

Additional observations from a re-analysis of the deposited data

How the results depend on the processing

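The number of members was 22, and all were higher after MCD, against 73.2% of all intervals. The number was 26 with the starts of protein-coding transcripts, 22 with distances from the midpoint and 21 by overlap with the gene body. It was 17 with all annotated transcripts, where Gm43430, a gene model inside Nfkb1 without an Entrez identifier, takes 5. All were higher in each case. These sets share most of their intervals, and most lie at control means where no interval was listed as lower. Their direction could therefore hardly come out otherwise and is no further check. The median log2 difference of 1.75 was 1.77 with all annotated transcripts and by overlap with the gene body, 1.44 with 5 reads added to each mean and 0.60 after subtracting the median of all intervals. The κB count stayed at 4 in its 3 alternatives, which could only add to it. The share over all intervals rose meanwhile from 7.03% to 8.89% with a looser consensus and to 10.1% with widened intervals. Over those higher after MCD it rose from 8.67% to 10.5% and 12.4%. With protein-coding starts the 4 were among 26 intervals. The AP-1 count of 4 was 3 with only TGACTCA and TGAGTCA, 5 with intervals widened by 100 bases on each side and 7 with protein-coding starts, which add 2 intervals of Pus10 and 1 of Manba. Over all intervals the AP-1 share was 34.1% with only TGACTCA and TGAGTCA and 49.5% with widened intervals. The 6 members within 3 kb of a start fell to 2 within 1 kb. No paired analysis was possible because the table holds condition means, and for the same reason no sample could be left out and replicate error could not be examined.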
